A study of Homo sapiens with 79 samples.

Results

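The genes described here build the sending side of chemical synapses. They were taken by symbol from a list of 32 genes, of which 31 are rows of a count table of 24414 genes, and CPLX3 was not analysed here. The cells came from retinal organoids, layered aggregates of retinal tissue grown from human pluripotent stem cells, of the CRX-GFP human ESC line (H9 cells that report the photoreceptor gene CRX). Organoids of day 60, day 90 and day 200 of differentiation grew in medium with foetal calf serum, T3 (thyroid hormone), taurine and retinoic acid. The groups therefore share every agent of the medium, and all cells come from a single reporter line. The groups differ in age, but not in age alone. By the methods of the paper, the amount of added control RNA (spike-in) and the filters on cells were not the same for all days. In the comparisons between days, age was thus not separated from capture run and cell filter, and their parts were not tested. Day 60 and day 90 cells were each captured on 1 Fluidigm C1 chip and day 200 cells on a pair of chips (a and b), which gave 578, 661, 356 and 381 cells. A chip was the unit of replication, so day 200 alone has a repeat, and no source used here says whether its chips held separate cultures.

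A nerve ending fills vesicles with transmitter, docks them at the active zone, and fuses them with the membrane when calcium enters. Most neurons run this cycle with syntaxin-1, the complexins CPLX1 and CPLX2 and the synapsins, which tether vesicles. Photoreceptors and bipolar cells of the retina signal without pause and hold their vesicles on a ribbon, a plate of the CTBP2 product RIBEYE. Their ribbon synapses use syntaxin-3, the complexins CPLX3 and CPLX4, the glutamate transporter SLC17A7 and a calcium channel made from CACNA1F and CACNA2D4 and tuned by CABP4.

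Cells were assigned to classes by the mean score of marker lists that hold none of the 31 genes, so the classes rest on other genes of the same cells. Photoreceptor-like cells numbered 3 on the day 60 chip, 90 at day 90, 70 (chip a) and 32 (chip b), and the same counts for projection neuron-like cells were 154, 39, 5 and 22. Of the 16 photoreceptor markers 14 were at least 2-fold higher in their class with reads in at least 20% of its cells, and 9 of the 10 projection neuron markers passed the same check. The projection neuron-like class is not purely retinal by its genes, since at least 3 HOX genes, which mark hindbrain and spinal cord, had reads in 64.9% of these cells at day 60, 28.2% at day 90 and 54.5% on chip b. At least 3 genes of horizontal and amacrine cells, other neurons of the retina, had reads in 3.25%, 33.3% and 18.2% of them. The part of these cells in the comparisons below was not tested. Between 26.8% and 33.4% of the cells of a chip lay within 0.1 of a class boundary. Median reads per cell ran from 160343 to 251929 over the chips. The lowest read total of a cell was 88192 at day 60, 7549 at day 90, 127130 (chip a) and 125646 (chip b). Shares of cells with a read were taken after thinning each cell to 50000 reads. The chip columns, each of which is 1 sample, drew on a shared set of 40 cell barcodes, of which 38 were seen on the day 60 chip, and no barcode was repeated within a sample.

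Over all cells, the 31 genes together took 1522 CPM, reads scaled to the same library total, at day 60, 2187 at day 90, 3261 (chip a) and 2234 (chip b). Between day 60 and day 200, some but not all ribbon synapse genes stood out by size. By a rule of size, at least 2-fold on the log2(CPM + 1) scale against both day 200 chips, 6 of the 28 genes that reached 5 CPM on any chip were higher at day 200. They were RIMS2, STX3, CPLX4, SLC17A7, CACNA2D4 and SV2B, and the same rule held for 8.07% of all 13809 genes. Of these, RIMS2 and SV2B are not counted as ribbon forms below, and the ribbon form CTBP2 did not pass. SYT4, RAB3A and RIMS1 were lower at day 200, against 4.4% of all genes. CACNA1F, CABP4 and VAMP1 stayed below 5 CPM on each chip. Since 0.519% of day 60 cells, 13.6% of day 90 cells, 19.7% of chip a cells and 8.40% of chip b cells were photoreceptor-like, more cells of a type and more RNA per cell cannot be told apart in these sums.

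RIMS2, an active zone scaffold that binds calcium channels, took 96.8 CPM at day 60, 400.2 at day 90, 805 (chip a) and 486 (chip b). STX3, the syntaxin of ribbon synapses, took 52.5, 248, 385 and 157 CPM in the same order. CPLX4, a complexin that clamps fusion at ribbons, took 9.00, 79.5, 113 and 36.4 CPM. All of these genes were lowest at day 60 and highest on chip a. The vesicle protein SV2B had the same order at its ends, with 8.00, 77.5, 173 and 85.7 CPM. SLC17A7, which loads glutamate into vesicles, took 25.0 CPM at day 60, 119 at day 90, 192 (chip a) and 57.6 (chip b). The channel subunit CACNA2D4 took 2.21, 25.3, 48.9 and 15.4 CPM, and its partner CACNA1F had no read at day 60, which allows up to 0.0286 CPM, and at most 3.48 CPM elsewhere. For STX3, CPLX4, SLC17A7 and CACNA2D4 the day 90 level lay between those of the 2 day 200 chips. CABP4, the calcium sensor of the channel, had no read at day 60 and at most 1.00 CPM on the other chips.

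SYT4, a synaptotagmin of neurons and secretory cells, went the other way with 252 CPM at day 60, 109 at day 90, 94.99 (chip a) and 100.4 (chip b). RAB3A, a small GTPase on vesicles, took 10.4 CPM at day 60, 1.52 at day 90, 0.0931 (chip a) and 0.807 (chip b). RIMS1, the paralog of RIMS2, took 17.2, 8.80, 5.44 and 7.40 CPM. Day 60 was highest for all of these genes. RAB3A and RIMS1 rested on few cells, with reads at 50000 reads in 5.36% and 7.44% of day 60 cells, and a single cell held 31.7% of all RAB3A reads and 12.8% of all RIMS1 reads. The glutamate transporter of conventional synapses, SLC17A6, took 10.0 CPM at day 60, 3.01 at day 90, 7.52 on chip b and no read on chip a.

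**Figure D1:**
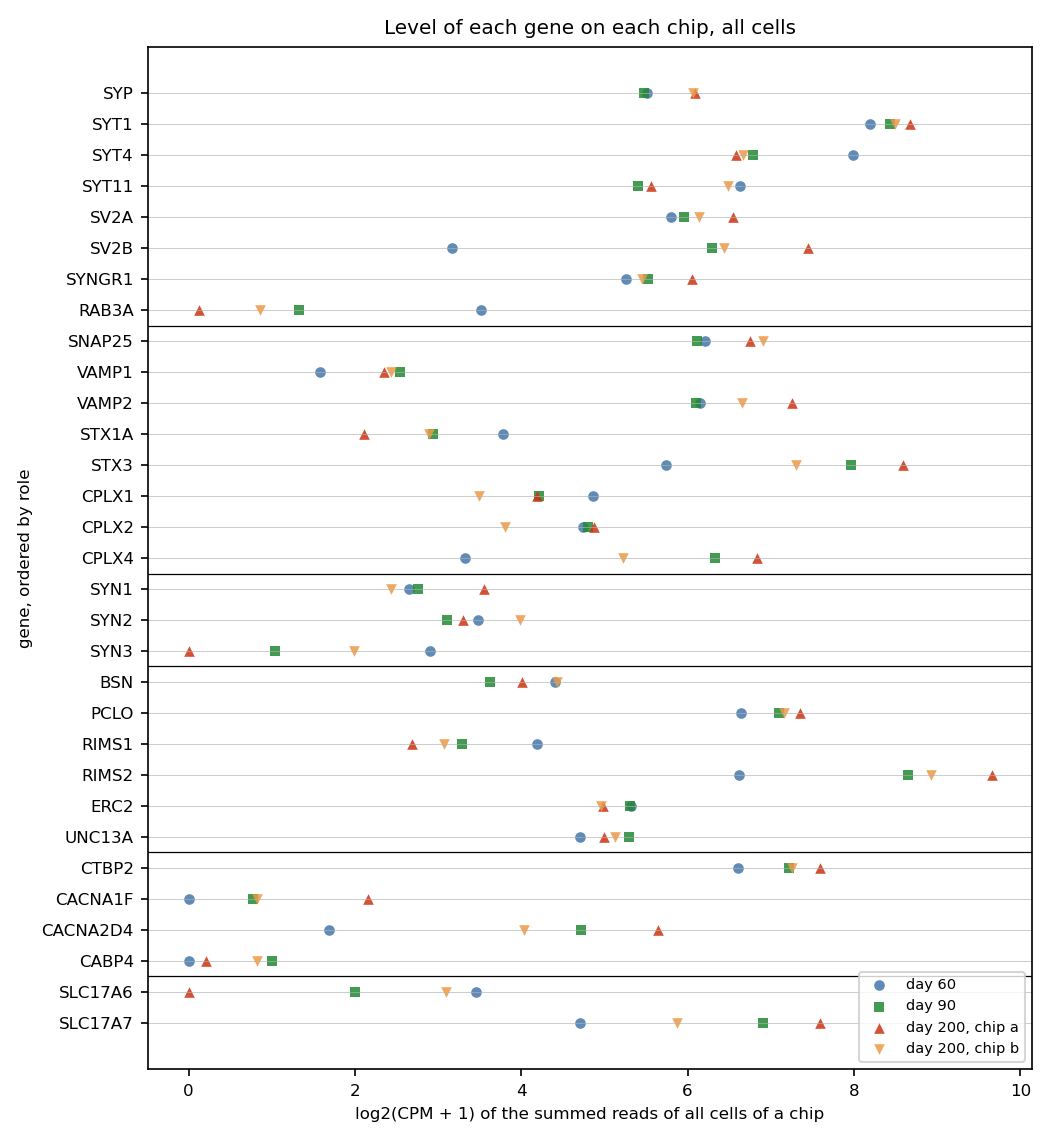
Level of each of the 31 genes in the summed reads of all cells of a chip, on the log2(CPM + 1) scale, with genes grouped by role between the lines. RIMS2, STX3, CPLX4, SLC17A7, CACNA2D4 and SV2B have their day 60 point to the left of the other chips, while SYT4, RAB3A and RIMS1 have it to the right.

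Other genes of the vesicle cycle did not pass the rule of size. SYT1, the calcium sensor of fast release, took 291 CPM at day 60, 345 at day 90, 408 (chip a) and 360 (chip b). SYP, a major vesicle protein, took 44.8, 43.7, 67.04 and 65.7 CPM, and the SNARE protein SNAP25 took 73.1, 68.1, 107 and 119 CPM. VAMP2, the SNARE protein of the vesicle, took 70.2, 67.5, 152 and 99.8 CPM. Each of these genes was within 2-fold of day 60 on at least 1 day 200 chip. The scaffold PCLO took 98.6, 135, 162 and 142 CPM, and BSN, its partner at the active zone, took 20.1, 11.4, 15.2 and 20.5 CPM.

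The edgeR quasi-likelihood test of day 200 against day 60, with 1 residual degree of freedom from the 2 day 200 chips, called none of the 31 genes at an adjusted p under 0.05. It called 0% of all 23564 genes, with a lowest adjusted p of 0.569. At an unadjusted p under 0.05 it held 6 of the 31 genes and 5.49% of all genes. SV2B had a log2 fold change of 3.99 ± 0.65 (SE) and an adjusted p of 0.623, and RIMS2 one of 2.71 ± 0.47 and an adjusted p of 0.640. DESeq2 on the same sums called 8 of the 31 genes higher and 3 lower, against 12% of all genes in either direction. The 31 genes had a median log2 fold change of 0.51 in the edgeR fit, the 7 ribbon forms one of 3.03 and the 7 conventional forms one of -1.06, while over all genes it was 0. Of 21 further vesicle and SNARE genes, 17 further active zone and ribbon genes, 14 receptor-side genes and 6 genes of other transmitters, edgeR called 0, with unadjusted p under 0.05 for 2, 3, 2 and 1 of them, and DESeq2 called 4, 5, 3 and 3.

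Against day 90, which also has 1 chip, none of the 26 genes that reached 5 CPM was 2-fold higher or lower on both day 200 chips over all cells, where 3.19% of all genes were higher and 2.53% lower.

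RIMS2 and the ribbon synapse genes STX3, CPLX4 and SLC17A7 were higher in photoreceptor-like than in projection neuron-like cells at day 90 and on chip b. They were also higher than in Müller glia-like cells at day 90 and on both day 200 chips. RIMS2 took 1330 CPM in photoreceptor-like cells at day 90, 2147 (chip a) and 2863 (chip b). In projection neuron-like cells it took 115 CPM at day 60, 199.6 at day 90 and 291 on chip b, and in Müller glia-like cells 46.5, 71.7, 206 and 151 CPM on the chips in order of age. Its photoreceptor-like sums lay above every sum of both other classes. STX3 took 759.5, 1178 and 851 CPM in photoreceptor-like cells, 62.6, 97.5 and 178 CPM in projection neuron-like cells, and from 0.443 to 101 CPM in Müller glia-like cells. CPLX4 took 318, 398 and 269 CPM in photoreceptor-like cells, 4.70, 7.61 and 0.360 CPM in projection neuron-like cells, and 0 to 17.1 CPM in Müller glia-like cells. SLC17A7 took 344, 441 and 280.3 CPM in photoreceptor-like cells, 35.8, 33.1 and 46.7 CPM in projection neuron-like cells, and 0.443 to 42.2 CPM in Müller glia-like cells. For each of these genes the photoreceptor-like sums did not overlap those of either class. The share of all genes without such overlap is not given, here or for the genes below, so this describes the values only. Single cells held much of the low reads in projection neuron-like cells, 97.7% of CPLX4 at day 60 and 92.7% of SLC17A7 on chip b.

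The other glutamate transporter, SLC17A6, had the opposite pattern. It had no read in photoreceptor-like cells on any chip, and took 32.9 CPM in projection neuron-like cells at day 60, 50.002 at day 90 and 117 on chip b. With 3 reads as the limit that a count of 0 allows, its level in photoreceptor-like cells was at least 281-fold lower at day 90 and at least 310.4-fold lower on chip b. At 50000 reads 0 of 194 photoreceptor-like cells had a read of SLC17A6, which allows a share of up to 1.55%, and 29 of 220 projection neuron-like cells had one. Single cells held 95.8% of its reads in projection neuron-like cells at day 90 and 41.9% on chip b. Pooled over the chips, SLC17A7 was read alone in 65.98% of single photoreceptor-like cells. In projection neuron-like cells, pooled alike, SLC17A6 was read alone in 10.0%, SLC17A7 alone in 16.4% and both in 3.18%.

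**Figure D2:**
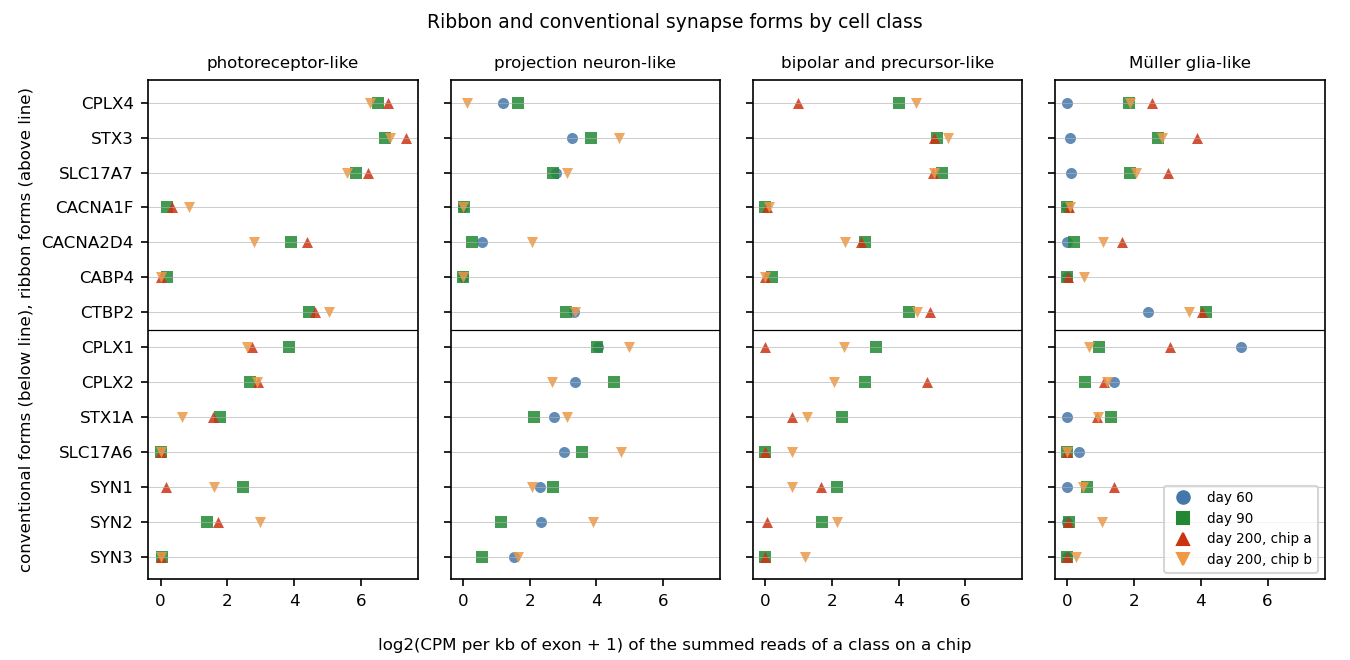
Ribbon forms (above the line) and conventional forms (below it) in the summed reads of each class on each chip, as log2(CPM per kb of exon + 1), for sums of at least 10 cells. CPLX4, STX3 and SLC17A7 sit furthest right in photoreceptor-like cells, and SLC17A6 at 0 there.

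The 300 bases around the start sites of these genes are shown because CPLX4, STX3 and SLC17A7 are the ribbon forms with the highest level per kb in photoreceptor-like cells and SLC17A6 is the conventional form that had no read there. They run from 250 bases before to 50 bases after the annotated start on the strand of the gene (RefSeq, GRCh38.p14), and capitals mark TAATCC or its complement, the motif bound by CRX and OTX2. CPLX4 lies on the minus strand at chr18:59318600-59318899, SLC17A7 on the minus strand at chr19:49441478-49441777, STX3 on the plus strand at chr11:59755126-59755425 and SLC17A6 on the plus strand at chr11:22338131-22338430.
CPLX4: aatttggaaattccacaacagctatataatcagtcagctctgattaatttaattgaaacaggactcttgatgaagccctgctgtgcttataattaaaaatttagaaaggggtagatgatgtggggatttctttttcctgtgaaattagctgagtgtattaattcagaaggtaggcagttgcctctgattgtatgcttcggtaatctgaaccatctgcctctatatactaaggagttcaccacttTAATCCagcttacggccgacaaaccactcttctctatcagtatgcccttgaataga
STX3: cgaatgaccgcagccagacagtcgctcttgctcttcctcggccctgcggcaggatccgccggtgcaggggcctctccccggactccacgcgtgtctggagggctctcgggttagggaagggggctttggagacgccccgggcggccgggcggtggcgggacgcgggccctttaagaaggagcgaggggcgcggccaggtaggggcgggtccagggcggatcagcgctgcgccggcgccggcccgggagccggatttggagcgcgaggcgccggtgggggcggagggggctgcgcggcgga
SLC17A7: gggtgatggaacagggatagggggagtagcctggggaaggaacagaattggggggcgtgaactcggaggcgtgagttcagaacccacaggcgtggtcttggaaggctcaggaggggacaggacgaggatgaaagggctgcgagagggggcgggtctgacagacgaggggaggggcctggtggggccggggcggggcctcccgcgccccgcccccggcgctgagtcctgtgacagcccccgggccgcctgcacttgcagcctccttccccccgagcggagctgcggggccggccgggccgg
SLC17A6: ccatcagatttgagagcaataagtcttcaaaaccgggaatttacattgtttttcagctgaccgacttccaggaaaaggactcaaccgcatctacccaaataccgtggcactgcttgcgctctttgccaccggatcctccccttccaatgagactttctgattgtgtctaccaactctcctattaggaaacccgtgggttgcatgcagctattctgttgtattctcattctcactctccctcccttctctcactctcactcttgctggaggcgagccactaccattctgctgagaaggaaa
The motif begins 6 bases before the start of CPLX4, and the other windows shown hold no match. Searched on both strands, TAATCC was in the windows of 4 of the 26 measured genes with an entry, namely CPLX4, CTBP2, CACNA1F and SV2B, and CTBP2 and SV2B have several start sites and so several windows. It was in 7.81% of all 27305 genes of the table. Among genes with an entry it was in 3 of 6 ribbon forms and 0 of 5 conventional forms. A match describes the letters of the window and is not a measured site.

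Ribbon forms here are CPLX4, STX3, SLC17A7, CTBP2, CACNA1F, CACNA2D4 and CABP4, and conventional forms CPLX1, CPLX2, STX1A, SLC17A6, SYN1, SYN2 and SYN3. Per kb of exon, CPLX4 stood to the sum of CPLX1 and CPLX2 as 4.77 to 1 in photoreceptor-like cells at day 90, 9.17 (chip a) and 6.63 (chip b). In projection neuron-like cells the ratio was 0.0532 at day 60, 0.0574 at day 90 and 0.00282 on chip b, and 0.169 over both day 200 chips once the 5 cells of chip a are added. Without scaling by length the ratio was 4.59 to 6.71 in photoreceptor-like cells and 0.00329 to 0.0460 in projection neuron-like cells, and the ranges did not overlap on either scale. CPLX1 alone took 31.6, 13.4 and 11.9 CPM in photoreceptor-like cells and 36.5, 36.1 and 72.05 CPM in projection neuron-like cells. CPLX2 took 37.7, 45.9 and 45.02 CPM against 65.6, 154 and 37.3 CPM, and its sums overlapped. Summed per kb over the 7 ribbon forms and the 7 conventional forms, ribbon stood to conventional as 10.4 at day 90, 23.5 (chip a) and 13.2 (chip b) in photoreceptor-like cells, and as 0.490 to 0.537 in projection neuron-like cells. Without scaling by length the same ratio was 16.6, 29.8 and 16.3 in photoreceptor-like cells and 0.967, 0.783 and 0.935 in projection neuron-like cells, close to 1. A ratio above 1 was not particular to photoreceptor-like cells. In Müller glia-like cells it was 8.25, 3.89 and 5.72 per kb at day 90 and on chips a and b, and 19.8, 9.97 and 8.90 unscaled. There the ribbon forms summed to 28.1, 43.4 and 25.0 CPM per kb, against 286, 391 and 278 in photoreceptor-like cells. At day 60 the glial ratio was 0.118 per kb. Bipolar and precursor-like cells had 4.46, 3.29 and 8.32 per kb. With CTBP2 left out, the ratio per kb at day 90 and on chips a and b was 3.26, 2.50 and 3.11 in Müller glia-like cells. It was then 9.66, 22.1 and 11.7 in photoreceptor-like and 3.72, 2.33 and 6.83 in bipolar and precursor-like cells. Whether reads scale with exon length in these barcoded libraries is not settled by the sources used here, so both scales are given.

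Compared per kb of exon within photoreceptor-like cells, the leading genes were STX3, RIMS2 and CPLX4 at day 90 and on chip a. On chip b SYT1 lay above CPLX4. This order depends on the scaling by length, and exon length here is the union of all annotated exons of a gene. That union is 20369 bases for SNAP25 and 13710 for SV2B, beside 3545 for CPLX4. In plain CPM RIMS2 led on each chip with a photoreceptor-like sum, and SYT1, with 664, 750.4 and 829.7 CPM, lay above CPLX4 on each. STX3 stood at 104, 161 and 116 CPM per kb on the chips in order of age, RIMS2 at 83.5, 135 and 179.8, and CPLX4 at 89.7, 112 and 76.02. Which of them led per kb changed with the chip. SYT1 stood at 70.2, 79.3 and 87.7 CPM per kb, VAMP2 at 39.8, 90.7 and 59.1 and SLC17A7 at 57.4, 73.6 and 46.8. CTBP2 stood at 20.9, 23.9 and 31.9 CPM per kb, and its counts cannot tell the ribbon protein from the transcription co-repressor made by the same gene.

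In the fit over chip and class sums, with chip as a block and 4 residual degrees of freedom, RIMS2 rose in photoreceptor-like against projection neuron-like cells by a log2 fold change of 2.91 ± 0.25 (SE; edgeR, adjusted p = 0.000901). It was the gene called among 30 tested, and 0.209% of all 17743 genes were called higher in photoreceptor-like cells and 0.197% lower. CPLX4 had a larger log2 fold change of 5.73 ± 1.34 that missed the threshold (edgeR, adjusted p = 0.132). The values of SV2B were 2.32 ± 0.46 (adjusted p = 0.0829), of SLC17A7 2.32 ± 0.83 (adjusted p = 0.396) and of STX3 1.94 ± 0.80 (adjusted p = 0.490). SYT4 had a log2 fold change of -1.38 ± 0.46 (edgeR, adjusted p = 0.346). SLC17A6, with no read on one side, had an adjusted p of 0.201 and is given above as a bound. At an unadjusted p under 0.05 there were 11 of the 30 genes and 9.12% of all genes. DESeq2 called 5 of the 30, and 1216 of all 17743 genes. All 6 ribbon forms tested had a positive log2 fold change, with a median of 2.66, and 6 of the 7 conventional forms a negative one, with a median of -1.60, against 0.01 over all genes. RIMS2 and SYT4 are also genes that the study picked from these cells to name its cone and ganglion cell clusters, so their direction is not independent evidence. Without the day 60 chip, which holds projection neuron-like but no photoreceptor-like sum, edgeR called 5 genes, with adjusted p of 0.00789 for STX3, 0.0103 for SLC17A7, 0.0145 for CPLX4 and 0.0340 for SV2B beside RIMS2. The share of all genes called without that chip is not given, so this count has no background beside it. The RIMS2 call rested on both the day 90 chip and chip b, since without day 90 its adjusted p was 0.0553 and without chip b 0.053.

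Against Müller glia-like cells, the glia of the retina, which make no such synapse, 9 of the 30 genes tested rose in photoreceptor-like cells, where 1.13% of all genes were called higher and 0.902% lower, and none of the 30 fell. The comparison uses the same photoreceptor-like sums as the one before. RIMS2 rose by a log2 fold change of 3.99 ± 0.23 (edgeR, adjusted p = 2.67e-05), SNAP25 by 3.98 ± 0.44 (adjusted p = 0.00149) and SYT4 by 3.67 ± 0.46 (adjusted p = 0.00302). The ribbon forms STX3, SLC17A7 and CPLX4 rose by 4.30 ± 0.62, 4.22 ± 0.64 and 5.11 ± 0.90, with adjusted p of 0.00659, 0.00825 and 0.0170. SYP, SYT1 and PCLO rose by 3.60, 1.71 and 2.46, with adjusted p of 0.00825, 0.00541 and 0.00541. So the called genes were of both kinds, those shared by all synapses and those of ribbons, and the 30 genes had a median log2 fold change of 2.47 beside 0.01 over all genes. CACNA2D4 (4.62 ± 1.15), SYN2 (5.46 ± 1.42) and VAMP2 (1.66 ± 0.40) missed the threshold with adjusted p from 0.0730 to 0.0979. DESeq2 called 16 of the 30 genes, and 1846 of all 17743 genes. Without the day 90 chip edgeR called 5 and without chip b 4, and the share of all genes called in those fits is not given.

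**Figure D3:**
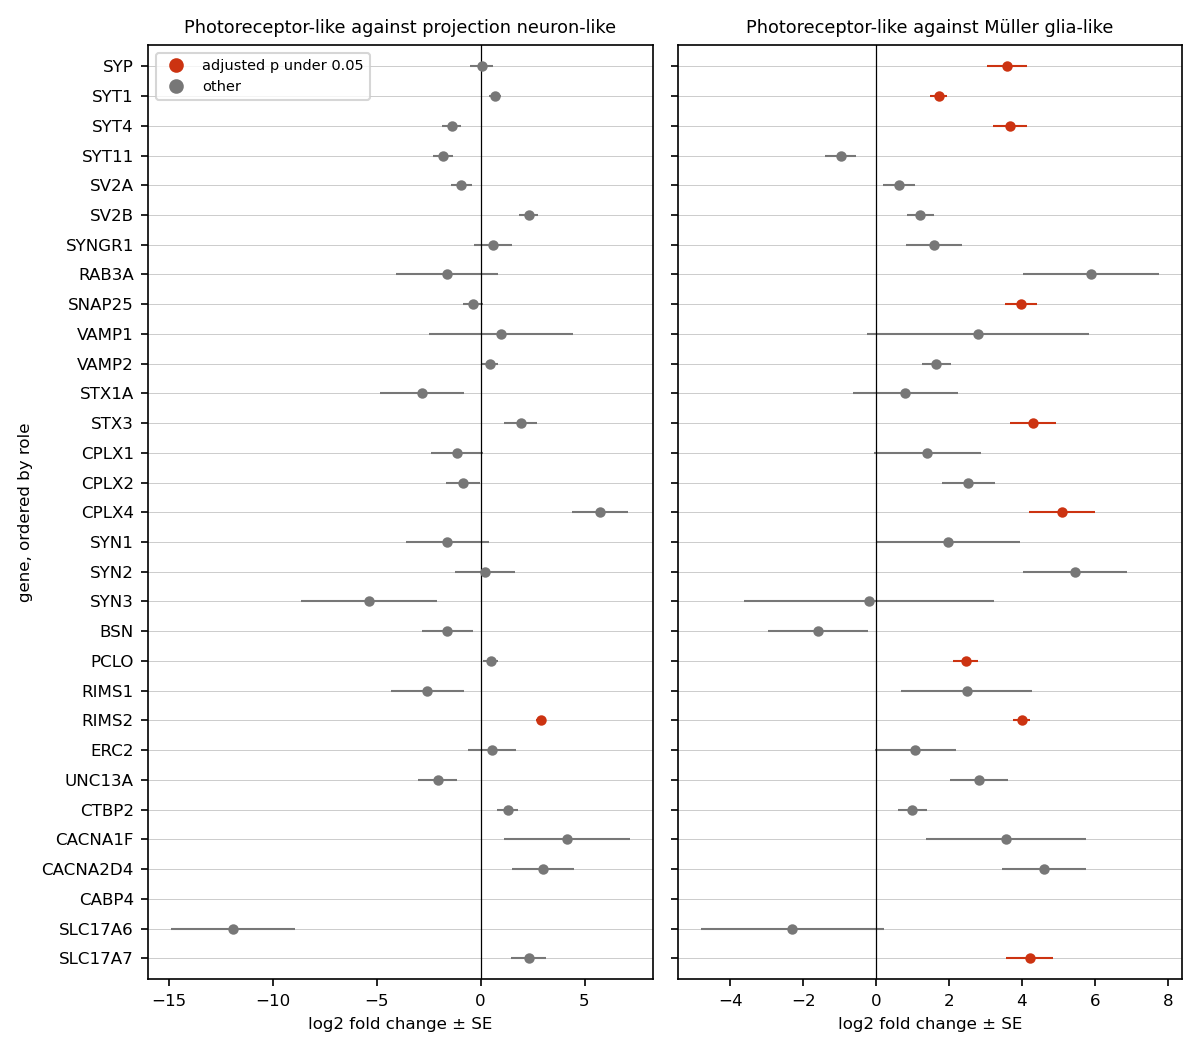
Log2 fold change with its SE (|log2 fold change| over the root of F) for each gene tested, photoreceptor-like against projection neuron-like cells on the left and against Müller glia-like cells on the right, where red marks an adjusted p under 0.05. RIMS2 is the red point on the left, and 9 genes are red on the right, all above 0.

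SNAP25 and SYP show how general vesicle genes behaved across neurons and glia. SNAP25 took 167, 243 and 389 CPM in photoreceptor-like cells, 142, 169 and 361 CPM in projection neuron-like cells, and 1.77 to 25.2 CPM in Müller glia-like cells. SYP took 95.1, 127 and 154 CPM, then 68.4, 91.2 and 172 CPM, and 2.17 to 18.0 CPM in the same classes. Both kinds of neuron overlapped and lay above glia. SYT1 did not separate as far, with 664 to 829.7 CPM in photoreceptor-like cells, 322 to 600.0 in projection neuron-like cells and 166 to 270.4 in Müller glia-like cells. SYT11, a synaptotagmin that does not bind calcium, had another order, with 22.2 to 87.3 CPM in photoreceptor-like cells, 164 to 246 in projection neuron-like cells and 68.96 to 113 in Müller glia-like cells, so that photoreceptor-like and glia-like sums overlapped below those of projection neuron-like cells.

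Of the paralogous vesicle proteins SV2A and SV2B, the sums of SV2B alone were apart between the neuron classes. SV2B took 181 CPM at day 90, 325 (chip a) and 151 (chip b) in photoreceptor-like cells, and 0.510, 24.8 and 41.6 CPM in projection neuron-like cells. SV2A took 91.2, 128 and 109 CPM in photoreceptor-like cells and 116, 155 and 258 CPM in projection neuron-like cells, which overlapped. SV2B was not a gene of neurons alone in this table. In Müller glia-like cells it took 0.443 CPM at day 60, 50.5 at day 90, 170.2 (chip a) and 101 (chip b), and in the 90 pigment epithelium-like cells of day 90 it took 125 CPM with reads in 47.8% of cells. Matrix-producing cells, pooled over the chips, had reads of SV2B in 6.06% of cells at the same thinned depth. No single cell held more than 8.57% of the reads of the day 90 pigment epithelium-like cells.

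Reads of the leading genes were also found in classes not taken as neurons, and whether they are background or expression there was not tested. Pooled over the chips, RIMS2 was read in 33.3% each of pigment epithelium-like and matrix-producing cells, and STX3 in 40.4% and 24.2%. SLC17A7 was read there in 17.5% and 13.1%, and CPLX4 in 10.5% and 8.08%. In the 26 mitotic cells of day 90 RIMS2 was read in 53.8%, STX3 and SLC17A7 in 38.5% each, and CPLX4 in 26.9%. At day 60 RIMS2, STX3, SLC17A7 and CPLX4 were read in 25.8%, 13.4%, 12.4% and 2.06% of 97 mitotic cells. Projection neuron-like cells, also pooled over the chips, had reads of RIMS2 in 38.6%, STX3 in 32.7%, SLC17A7 in 19.5% and CPLX4 in 4.09%. Of these 220 cells 154 came from the day 60 chip, which held 3 photoreceptor-like and 4 pigment epithelium-like cells. Class was thus not separated from chip in the pooled shares. Photoreceptor-like cells stood above all of these shares, with RIMS2 in 93.8%, STX3 in 86.6%, SLC17A7 in 65.98% and CPLX4 in 66.5% of 194 cells. SYT4 was read in 65% of projection neuron-like, 32.5% of photoreceptor-like, 5.26% of pigment epithelium-like and 6.06% of matrix-producing cells. Median depth before thinning ran from 145910 to 322184 reads over the classes and chips, mitotic cells aside, and mitochondrial reads from 2.14% to 14.2%.

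**Figure D4:**
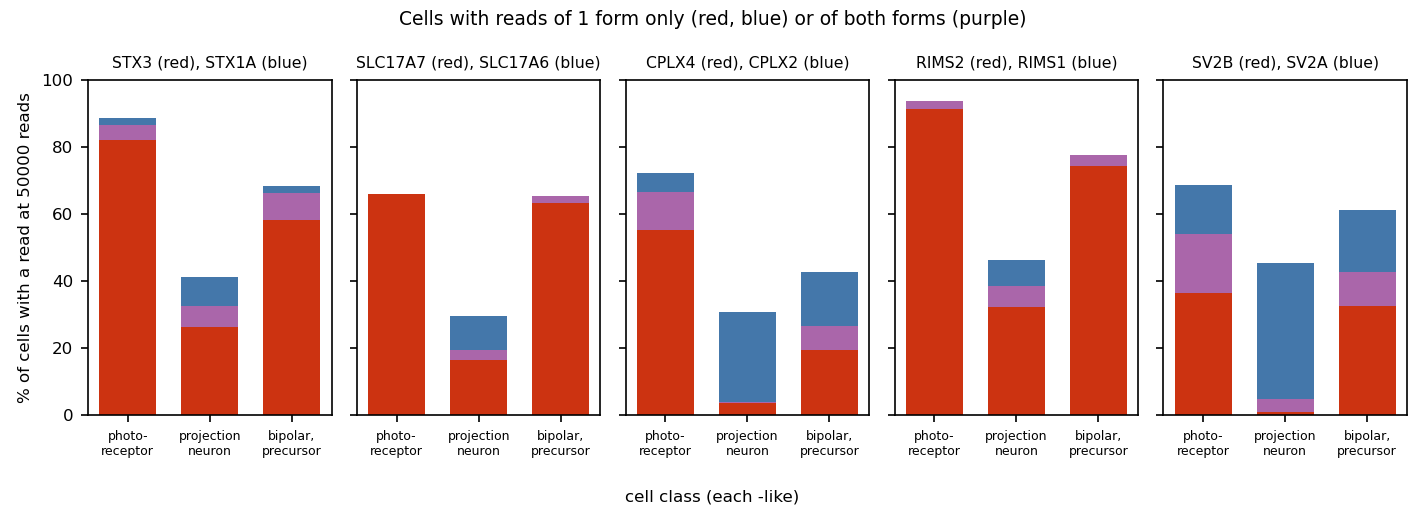
Share of cells with reads of one form alone (red or blue) or of both forms (purple) at 50000 reads, in 194 photoreceptor-like, 220 projection neuron-like and 98 bipolar and precursor-like cells. The cells of a class are pooled over the chips. The blue share of SLC17A6 and RIMS1 is 0% in photoreceptor-like cells.

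Reads of paired forms in single cells followed the sums. These shares pool the chips, so class was not separated from chip. STX3 was read alone in 82.0% of photoreceptor-like cells, together with STX1A in 4.64%, and STX1A alone in 2.06%. RIMS2 was read alone in 91.2%, together with RIMS1 in 2.58%, and RIMS1 alone in 0% of them. In projection neuron-like cells RIMS1 was read alone in 7.73%, RIMS2 alone in 32.3% and both in 6.36%. SYT4 and RIMS2 were read together in 30.4% of photoreceptor-like and 27.3% of projection neuron-like cells. A form read alone at this depth does not show that the other was absent from the cell.

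Each photoreceptor-like cell had reads of a median of 11 of the 31 genes at day 90, 8 (chip a) and 11 (chip b) at 50000 reads. Projection neuron-like cells had 8 at day 60, 8 at day 90 and 11 on chip b, and bipolar and precursor-like cells 9, 7 and 9 from day 90 on. Müller glia-like cells had 3 at day 60, 5 at day 90, 3 (chip a) and 4 (chip b). The neuron classes overlapped in their medians, and each lay above the glia of the same chip.

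**Figure D5:**
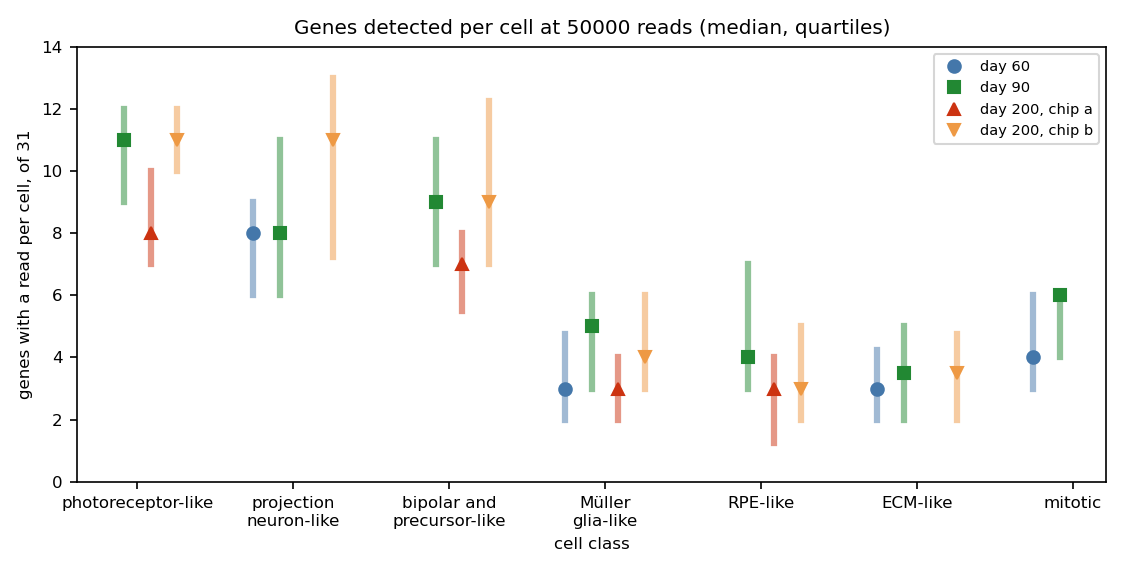
Number of the 31 genes with a read per cell after thinning to 50000 reads, as the median (symbol) and quartiles (bar) of each class on each chip with at least 10 cells. The medians of photoreceptor-like, projection neuron-like and bipolar and precursor-like cells lie between 7 and 11, those of Müller glia-like cells between 3 and 5.

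The remaining active zone genes and the synapsins were low or shared. PCLO took 327 to 483 CPM in photoreceptor-like and 180.1 to 323 CPM in projection neuron-like cells. UNC13A, which primes vesicles, took 60.7, 26.1 and 38.8 CPM in photoreceptor-like cells and 58.02, 147 and 171 CPM in projection neuron-like cells, and ERC2 took 13.5 to 58.4 CPM against 34.6 to 60.5 CPM. RIMS1 took 10.2, 0.0969 and 17.7 CPM in photoreceptor-like cells, below 26.5, 47.8 and 50.6 CPM in projection neuron-like cells, with an edgeR adjusted p of 0.733. Single cells held 98.6% of the RIMS1 reads in photoreceptor-like cells on chip b. The synapsin SYN2 took 10.1 to 44.01 CPM in photoreceptor-like and 7.76 to 88.1 CPM in projection neuron-like cells. SYN3 took 19.1, 4.93 and 21.97 CPM in projection neuron-like cells and 0.297 CPM, 0 and 0 in photoreceptor-like cells. At day 60 all of its reads in projection neuron-like cells came from the 100 cells with at least 3 HOX genes, at 30.1 CPM in 7% of cells, while SLC17A6 took 27.7 CPM in those cells and 41.8 CPM in the other 54. At day 90 the SYN3 reads went the other way, with 0 CPM in the 11 cells with at least 3 HOX genes and 6.80 CPM in the other 28. On chip b SYN3 took 35.2 CPM in the 12 cells with at least 3 HOX genes and 0 CPM in the other 10, as at day 60. CACNA2D4 took 104, 148 and 44.9 CPM in photoreceptor-like cells and 3.71, 1.49 and 23.96 CPM in projection neuron-like cells, which did not overlap.

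CTBP2, which gives the ribbon its main protein, took 96.4 CPM over all cells at day 60, 148 at day 90, 191 (chip a) and 152 (chip b). In photoreceptor-like cells it took 232, 266 and 354 CPM and in projection neuron-like cells 101, 84.3 and 103 CPM, which did not overlap but missed the threshold (edgeR, adjusted p = 0.434). The syntaxin STX1A was low in both neuron classes, with 9.03, 7.22 and 2.02 CPM in photoreceptor-like and 20.6, 12.5 and 28.6 CPM in projection neuron-like cells. SYNGR1, a vesicle membrane protein, took 37.2, 44.9, 65.4 and 42.8 CPM over all cells in order of age. VAMP1, a paralog of VAMP2, took at most 4.83 CPM on any chip, and a single cell held 18.1% of its reads. SYN1 took 14.7, 20.6 and 11.9 CPM in projection neuron-like cells, beside 17.0, 0.436 and 7.57 CPM in photoreceptor-like cells.

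Within photoreceptor-like cells time was compared between day 90 and day 200, because the day 60 chip held 3 of them, and this comparison was chosen after seeing the data. The edgeR test called none of the 28 genes tested, and 0.012% of all 16643 genes, and no gene of the 28 had an unadjusted p under 0.05, against 2.13% of all genes. DESeq2 called 0 of the 28, and 76 of all 16643 genes. SYT11 was higher by the rule of size, from 22.2 CPM at day 90 to 46.2 and 87.3 CPM, where 6.18% of all genes were higher. CPLX1, from 31.6 to 13.4 and 11.9 CPM, and SYN1, from 17.0 to 0.436 and 7.57 CPM, were lower, where 11.1% of all genes were lower, so 2 of 27 is a share below that of all genes. SYT11 and CPLX1 no longer passed the rule once each cell was thinned to 50000 reads. For RIMS2 the log2 fold change was 0.95 ± 0.55 (adjusted p = 0.948) and for CPLX4 0.12 ± 0.51 (edgeR, adjusted p = 1.00).

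Bipolar cells use ribbons too, and bipolar and precursor-like cells lay between the other neurons. RIMS2 took 632, 838 and 569 CPM in them, STX3 252, 236 and 318 CPM and SLC17A7 231, 191 and 193 CPM at day 90 and then on chips a and b, each below every photoreceptor-like sum and above every projection neuron-like sum. CPLX4 was uneven with 53.2, 3.54 and 78.3 CPM. SYP took 88.3 CPM here at day 90, 353 (chip a) and 344 (chip b), and a single cell held 30.6% of the reads on chip a. In an added comparison, chosen after seeing the data, edgeR called none of 28 genes between photoreceptor-like and these cells and 0.109% of all genes. STX3 came nearest with a log2 fold change of 1.77 ± 0.28 (adjusted p = 0.0859), then RIMS2 with 1.58 ± 0.27 (adjusted p = 0.126). DESeq2 called STX3, RIMS2 and CPLX4, and 559 of all 14707 genes. In edgeR 4 of the 28 genes had an unadjusted p under 0.05, against 5.04% of all genes.

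Cone-like and rod-like cells were split by their own markers within the photoreceptor-like class, with 69, 42 and 19 cone-like and 17, 22 and 11 rod-like cells at day 90 and then on chips a and b. SLC17A7 took 381, 547 and 334 CPM in cone-like cells and 196, 226 and 159 CPM in rod-like cells, higher on each chip. CPLX4 took 354, 434 and 306 CPM against 163, 337 and 219 CPM, also higher on each chip, while STX3 with 732, 1149 and 758 CPM against 808, 1305 and 1006 CPM was lower on each. The added edgeR comparison, also chosen after seeing the data, called none of 28 genes and 0.137% of all genes, and SLC17A7, with a log2 fold change of 1.07 ± 0.37 (edgeR, adjusted p = 0.940), was the gene with an unadjusted p under 0.05. Of all genes 4.21% had an unadjusted p under 0.05 in edgeR. DESeq2 called 0 of the 28, and 517 of all 13168 genes.

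Of the further lists, each counted whole, the active zone and ribbon genes held calls against projection neuron-like, Müller glia-like and bipolar and precursor-like cells. Against projection neuron-like cells edgeR called 2 of 17 tested, both higher in photoreceptor-like cells. UNC119, which carries lipid-modified proteins and sits at photoreceptor terminals, took 1341, 2825 and 2193 CPM in photoreceptor-like cells and 123 to 200.2 CPM in projection neuron-like cells, a log2 fold change of 3.79 ± 0.26 (adjusted p = 0.000450). TULP1, a photoreceptor protein found also at the ribbon, took 219.9, 177 and 208 CPM against 4.99, 1.34 and 0 CPM at day 60, at day 90 and on chip b, with an adjusted p of 0.0206. On the receptor side 1 of 14 genes was called, the glutamate receptor subunit GRIA4, with 10.3 to 28.2 CPM in photoreceptor-like and 97.0 to 457 CPM in projection neuron-like cells, a log2 fold change of -3.76 ± 0.62 (edgeR, adjusted p = 0.0302). None of 20 further vesicle genes and 6 genes of other transmitters was called there, with 5 and 3 at an unadjusted p under 0.05 and 2 and 2 called by DESeq2. Against Müller glia-like cells 4 of 17 active zone and ribbon genes rose, with UNC119, TULP1 and EGFLAM, the ribbon synapse protein pikachurin, the largest, and 3 of 20 vesicle genes, RAB3B, NAPB and AMPH, at log2 fold changes of 3.48, 3.09 and 2.29. The adjusted p of these 6 genes ran from 2.67e-05 to 0.0425. None of 14 receptor-side genes and 6 genes of other transmitters was called there, with 2 and 0 at an unadjusted p under 0.05 and 2 and 0 called by DESeq2. Of all genes 12.0% had an unadjusted p under 0.05 in that edgeR fit. Against bipolar and precursor-like cells edgeR called UNC119 alone of the 17 active zone and ribbon genes, with a log2 fold change of 1.67 ± 0.20 (adjusted p = 0.0330).

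Some counts are shared with neighbouring genes, and the strand setting of the counting is not given in the sources used here. In GENCODE 44 on GRCh38, exons of ZRANB1 on the opposite strand cover 30.8% of the exon length of CTBP2 (chr10:124984317-125161170), and a noncoding RNA on the same strand covers 24.9% of that of SYN1. The overlap was 11.9% for VAMP2, 10.4% for VAMP1 and 9.24% for RAB3A. No exon of CPLX4, SLC17A7, SLC17A6 or SYT4 overlapped another gene, 4.58% of STX3 lay opposite an olfactory receptor gene, and 1.39% of RIMS2 lay over a pseudogene. Single cells held 33.5% of all CACNA1F reads and 32.2% of all CABP4 reads, so both are given as levels with no statement on their pattern.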

How the data were processed

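Raw read counts per gene and cell were deposited by the authors for 1976 cells of 79 samples, each a column of a Fluidigm C1 chip. According to the paper's methods and the submitters' processing notes, reads were trimmed with Trimmomatic (v. 0.33), aligned to GRCh38.p7 with STAR (v. 2.4.0), counted per gene with HTSeq (v. 0.6) against GENCODE 25, and cells were filtered before deposit. The reads carry no molecular identifiers, so the intervals and limits given cover counting error only. A second table gave the sample of each cell. The genes and lists were chosen with earlier results of these data known.

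The spike-in row (0.00479% of reads) was left out. Counts were summed per chip, or per chip and class with at least 10 cells, and tested with the quasi-likelihood test of edgeR (v. 4.0.16; TMM, filterByExpr, Benjamini-Hochberg over all genes tested) in R (v. 4.3.3). The standard error was taken as the size of the log2 fold change over the root of F. DESeq2 (v. 1.42.0) was an alternative. The day 200 against day 60 fit over all cells used all 4 chips, and the class fits used chip as a block. In the day fits p-values measure the spread between the 2 day 200 chips, and in the class fits how far class differences vary between chips. Either spread may be technical. A cell was given the class with the highest mean z-score of its markers, at least 0.5 and 0.25 above the next, and was otherwise unassigned. Scrublet in scanpy (v. 1.11.5) called 2, 0, 1 and 4 doublets on the chips in order of age, and they were kept except in an alternative. Cells were thinned to 50000 reads for shares of cells, which left out 6 day 90 cells. Exon lengths, taken as the union of all annotated exons of a gene, and overlaps came from GENCODE 44 on GRCh38. All measured genes of the list are described, and of each further list at most the 3 called genes with the largest fold in each direction are named. The fits were also run on simulated counts with 1 fixed spread for all genes and no chip effect. That setting is unlike these data, so the run does not measure how the fits perform on them. CPLX3 was not analysed here, and the clusters of the authors were not used.

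Total reads per sample ran from 3414268 to 7999822. Alternatives covered the test, normalization, filters on genes and cells, doublets, class rule, chip term, pseudocount, thinning and leaving out each chip.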

Additional observations from a re-analysis of the deposited data

How the results depend on the processing

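DESeq2 called 11 of the 31 genes between day 200 and day 60 over all cells where edgeR called 0, 5 between photoreceptor-like and projection neuron-like cells against 1, 16 against Müller glia-like cells where edgeR called 9, and 3 against bipolar and precursor-like cells where edgeR called 0. Over all genes DESeq2 called 2836 of 23564, 1216 of 17743, 1846 of 17743 and 559 of 14707 in these comparisons. Against projection neuron-like cells the count was 2 with cells under 150000 reads or over 10% mitochondrial reads left out, 3 with stricter classes, 4 with looser classes and 3 with no chip term. Leaving out 1 chip gave 0 to 5 there (5 without day 60, 0 without day 90 or without chip b) and 4 to 10 against Müller glia-like cells. Against bipolar and precursor-like cells the count was 2 with no filter on low counts and 1 with stricter classes. Shares of all genes called by edgeR under these alternatives are not given, so the counts have no background beside them. By the rule of size, genes lower at day 200 than at day 60 numbered 1 with log2(CPM + 10) and 4 to 7 with 1 day 200 chip left out, against 3. Of all genes 1.55% were lower with log2(CPM + 10), 6.54% without chip a and 11.8% without chip b. In photoreceptor-like cells against day 90, log2(CPM + 10) gave 0 higher and 0 lower, and the mean over cells gave 0 higher. With 1 day 200 chip left out, 2 to 5 were higher and 5 to 6 lower. Of all genes 19.7% were then higher and 22.9% lower without chip a, and 17.8% and 25.4% without chip b. At 50000 reads per cell the genes there were CACNA1F in place of SYT11, and SYN1 and RAB3A in place of CPLX1 and SYN1, and the mean over cells also had SYN1 and RAB3A lower. Over all cells against day 90, 1 chip left out gave 2 to 3 higher and 0 to 3 lower. There 8.03% of all genes were higher and 5.61% lower without chip a, and 9.28% and 8.85% without chip b. The cause of these shifts was not tested, other than that fewer chips enter when 1 is left out. RIMS2, SNAP25 and SYT4 kept their calls against Müller glia-like cells under each of 12 alternatives, and no called gene changed sign. Day 200 against day 60 in photoreceptor-like cells was not run, since the day 60 chip held 3 of them, and neither was cone-like against rod-like with the cell filter, which left no residual degrees of freedom. No paired analysis was possible because the numbers in the sample titles are chip columns, and a chip belongs to 1 day only.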

Other observations

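The share of a gene's reads that came from each class differed between members. Photoreceptor-like cells, 195 of 1976, held 65.6% of all CPLX4 reads, 56.4% of CACNA2D4, 51.7% of STX3, 50.5% of RIMS2 and 42.6% of SLC17A7. Other ribbon forms were spread, with 20.6% of CTBP2, 20.5% of CACNA1F and 6.03% of CABP4 reads in these cells, while pigment epithelium-like and Müller glia-like cells held 38.7% and 34.2% of the few CABP4 reads. Projection neuron-like cells, 220 in all, held 91.3% of all SLC17A6 reads, 68.4% of RAB3A, 63.6% of SYN3 and 45.9% of RIMS1. These shares are descriptions that move with the number and depth of the cells of each class, and 822 cells were in no class, which held 34.9% of SLC17A7 reads and 72.5% of CACNA1F reads.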
